A study of Mus musculus with 2 samples.

Results

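The 9 genes described here encode G protein-coupled receptors that sense lipids or adenosine on cells of the myeloid lineage, together with adhesion receptors of the same superfamily. They are Gpr34, Gpr183, Lpar5, Lpar6, S1pr1, Ptafr, Adora3, Adgrg1 and Adgre1. They were taken by gene symbol, and all 9 were found among the 55357 genes of the deposited tables. The study compared wild-type mice with mice lacking Msn, the gene of moesin, which links the plasma membrane to cortical actin. Both groups were 8 weeks old, with no treatment named, and were represented by CD45+ CD11b+ cells sorted from cerebral cortex. Each group was 1 single-cell library from a pool of 5 to 6 mice. The knockout mice were C57BL/6. Sex, the strain of the controls and which part of Msn was removed were not given in the sources used here.

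With 1 library per genotype, genotype and library cannot be told apart, no test was made, and no value has a replicate error. Intervals are exact 95% intervals and cover counting error only. The libraries held 68576464 and 67575835 unique molecular identifiers (UMIs, counted molecules) in 5842 wild-type and 9038 knockout barcodes, 13 of which occurred in both. After filtering, 5577 and 7573 cells remained. Cells were sorted into classes by marker genes, none of which is among the 9 receptors. Microglia-gated cells (P2ry12 and Tmem119) numbered 5035 (wild-type) and 4671 (knockout), with medians of 7271 and 5627 UMIs per cell. Monocyte-gated cells numbered 36 and 488, border macrophage-gated cells (Mrc1 and Pf4) 18 and 94, and NK-gated cells (Ncr1 and Nkg7) 0 and 58. Among the monocytes of the knockout library, 300 carried Ace alone and 123 Ly6c2 alone, the marks of non-classical and classical monocytes. Levels are given as UMIs per 1000000 UMIs of the class (CPM). These are 3′ counts that were not divided by transcript length, so levels are compared between classes and libraries and not between genes. Msn was at 322 CPM in wild-type and 20.7 CPM in knockout microglia-gated cells.

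Microglia scan brain tissue for small molecules released by damaged, dying or active cells, and several of these molecules are lipids cut from membranes. Lysophosphatidylserine, lysophosphatidic acid (LPA), sphingosine 1-phosphate (S1P), platelet-activating factor (PAF) and oxysterols each act through their own rhodopsin-like receptors. Adenosine, formed outside cells when ATP is broken down, acts through another such family. Adhesion receptors instead carry long extracellular domains that bind matrix or membrane partners. Most of these receptors signal through inhibitory or Gq and G12 family proteins to calcium, cyclic AMP and the actin cytoskeleton.

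Promoter windows of 300 bases, from 250 before to 50 after the annotated start, were available from RefSeq (GRCm38.p6) for 6 of the 9 genes. They were searched on both strands for AGGAAGT, a form of the ETS family motif that includes the site of the myeloid factor PU.1, and for TGANTCA, the AP-1 motif. Of all 32851 mouse windows of this length, 9.35% held the first and 7.81% the second. Among the receptors, Lpar5 and Adora3 held the first, and Adora3 and Adgrg1 the second. Lpar5 and Adgrg1 had 2 windows each, so these genes are not set against the shares of windows. The windows of Adora3 and of the downstream Adgrg1 start are shown because both genes were highest in microglia-gated cells. Those of Gpr183 and Ptafr are shown as examples of genes shared with Ly6c2 monocytes and border macrophages. The windows of Lpar6, which was shared with the same classes, and of Lpar5 are not shown. The windows shown are Adora3 at chr3:105904171-105904470 (plus strand), Adgrg1 at chr8:94984149-94984448 (plus), Gpr183 at chr14:121965144-121965443 (minus) and Ptafr at chr4:132563817-132564116 (plus). Sequences run 5′ to 3′ on the strand of the gene, with motif matches in capitals.
Adora3: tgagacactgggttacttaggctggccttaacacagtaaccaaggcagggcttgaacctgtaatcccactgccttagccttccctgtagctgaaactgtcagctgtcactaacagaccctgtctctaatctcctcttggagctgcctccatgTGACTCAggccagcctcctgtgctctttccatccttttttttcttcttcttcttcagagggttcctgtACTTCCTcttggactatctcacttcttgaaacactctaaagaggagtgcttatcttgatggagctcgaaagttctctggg
Adgrg1: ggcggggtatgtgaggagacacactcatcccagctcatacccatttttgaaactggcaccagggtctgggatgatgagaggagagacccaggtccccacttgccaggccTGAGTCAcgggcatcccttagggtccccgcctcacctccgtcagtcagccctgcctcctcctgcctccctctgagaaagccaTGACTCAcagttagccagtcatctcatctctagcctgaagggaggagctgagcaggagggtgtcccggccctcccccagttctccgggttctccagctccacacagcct
Gpr183: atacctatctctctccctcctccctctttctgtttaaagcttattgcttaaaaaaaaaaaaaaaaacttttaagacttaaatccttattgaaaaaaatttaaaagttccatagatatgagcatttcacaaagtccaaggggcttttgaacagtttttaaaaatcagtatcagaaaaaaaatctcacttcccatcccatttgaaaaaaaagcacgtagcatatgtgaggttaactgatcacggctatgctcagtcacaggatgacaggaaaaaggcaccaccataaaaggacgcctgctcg
Ptafr: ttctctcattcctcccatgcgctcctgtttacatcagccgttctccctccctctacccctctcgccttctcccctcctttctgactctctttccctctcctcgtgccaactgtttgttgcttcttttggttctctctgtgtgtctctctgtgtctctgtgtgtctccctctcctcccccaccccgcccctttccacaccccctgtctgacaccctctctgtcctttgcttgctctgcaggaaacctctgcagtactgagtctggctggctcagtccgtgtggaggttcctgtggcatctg
In Adora3 the AP-1 match began 98 bases and the ETS family match, on the opposite strand, 30 bases before the start. The Adgrg1 window shown held 2 AP-1 matches, 141 and 59 bases before the start, and the window of its other start (chr8:94976859-94977158) held neither motif. No match occurred in the windows of Gpr183, Ptafr and Lpar6. A match is a description of letters and not evidence of binding.

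The first question was where among the sorted cells each receptor was found. In the knockout library Adora3 reached 6.78% (2.49% to 14.8%) of its microglial level in Ly6c2 monocytes. In border macrophages it reached 6.48% (0.785% to 23.4%), from 2 UMIs, and its other classes were lower. Adgrg1 reached at most 8.86% (4.05% to 16.8%) and Gpr34 19.1%, both in border macrophages. Adgre1 and S1pr1 were higher in border macrophages than in microglia, Gpr183, Ptafr and Lpar6 had overlapping intervals there, and Lpar6 was also near its microglial level in monocytes. Of the 8 receptors at 10 CPM or more in knockout microglia-gated cells, 4 had their highest level there among the 4 classes, against 39.8% of all 7806 genes that passed the same floor. The latter share is near that of the receptors, and Lpar6, one of the 4, was at 54.8 CPM against 53.5 CPM in border macrophages, so nothing is read from the count. In the wild-type library only microglia-gated and monocyte-gated cells reached 20 cells, and all 8 were higher in microglia-gated cells, against 69.3% of 8608 genes. That count rests on 36 monocytes, with 4 S1pr1 UMIs and 1 Adgrg1 UMI, and leaves out the 18 border macrophages. Nothing is read from it either.

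**Figure D1:**
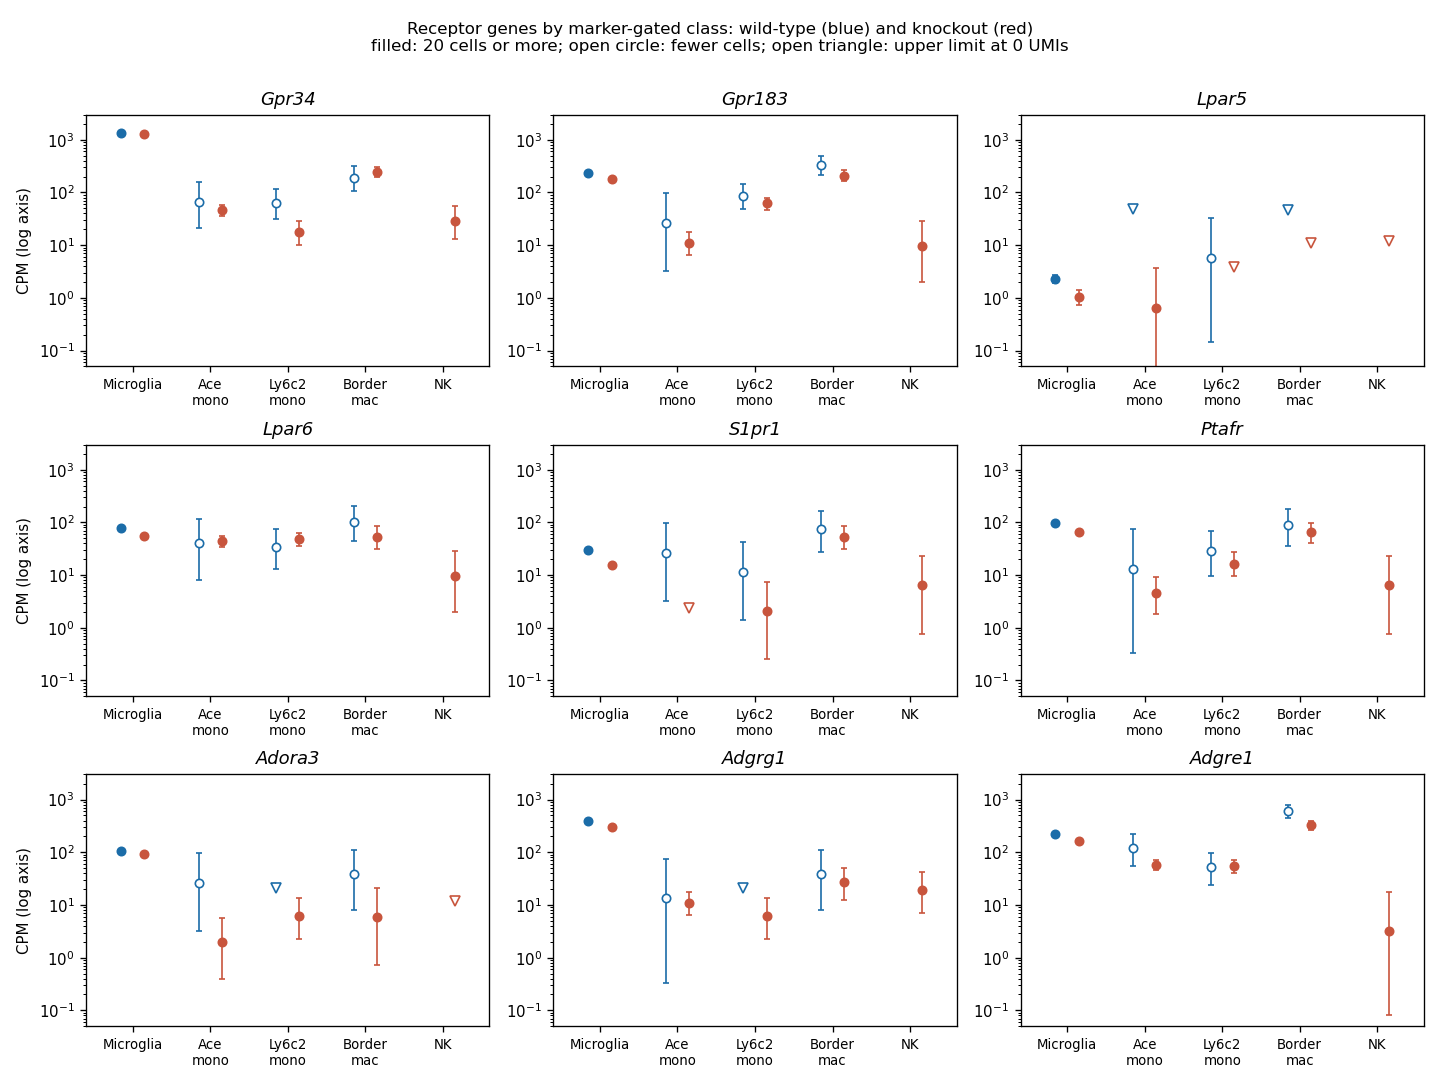
Level of each receptor in CPM (log axis) by marker-gated class for the wild-type library (blue) and the knockout library (red), 1 library each; bars are exact 95% intervals for counting error. Open circles stand for classes of under 20 cells and open triangles for the upper limit where no UMI was counted. Adgre1 and S1pr1 stand higher in knockout border macrophages (324 and 53.5 CPM) than in microglia-gated cells (164 and 15.6 CPM).

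A level in another class can include free RNA of microglia captured with the cell. As a measure of it, 6 microglial genes that no gate used (Sparc, Olfml3, Sall1, Fcrls, Siglech and Slc2a5) were expressed in each class as a percent of their microglial level. In the knockout library their median was 2.89% in monocytes (range 2.06% to 5.55%), 3.05% in NK cells (2.25% to 4.24%) and 10.2% in border macrophages (8.53% to 68.5%). In border macrophages Fcrls alone gave the upper end, and the other 5 genes lay at or under 13.8%.

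**Figure D2:**
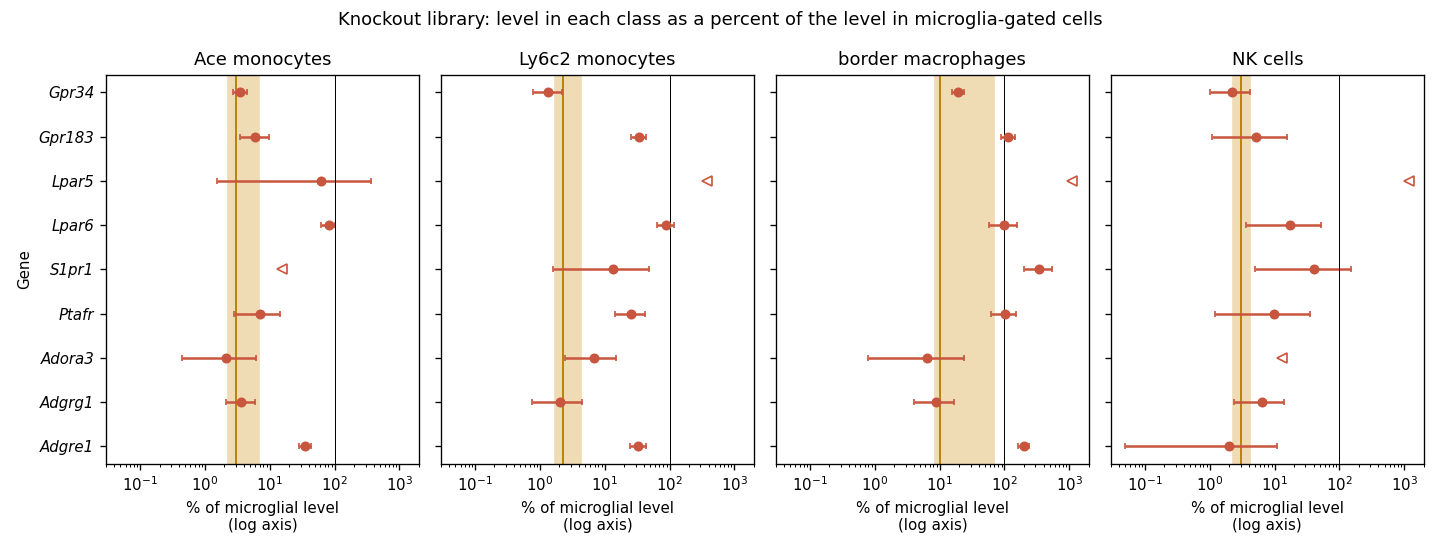
Level of each receptor in 4 classes of the knockout library as a percent of its level in microglia-gated cells (log axis), with exact 95% counting intervals; triangles mark upper limits at 0 UMIs. The shaded band is the range and the line the median of 6 microglial reference genes. Gpr34 and Adgrg1 lie in or beside the band in both kinds of monocyte and in NK cells. Lpar6 and Adgre1 lie above it in Ace monocytes (80.6% and 34.9%) and in Ly6c2 monocytes (86.9% and 32.8%).

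Gpr34, the receptor for lysophosphatidylserine, lies on chromosome X (GRCm39, 13489625 to 13507116) inside the span of Cask on the opposite strand. It was at 1350.25 CPM in wild-type and 1304 CPM in knockout microglia-gated cells. After each cell was thinned to 2000 UMIs, with 136 and 346 shallower cells left out, 92.0% of wild-type and 88.8% of knockout cells held a Gpr34 UMI (98.5% and 94.6% unthinned). It was thus detected in nearly every microglia-gated cell of either library. In the knockout library the next level was 249.6 CPM in border macrophages, followed by 46.1 CPM in Ace monocytes, 28.9 CPM in NK cells and 17.6 CPM in Ly6c2 monocytes. The intervals of Ace monocytes and NK cells overlapped, as did those of NK cells and Ly6c2 monocytes. As a percent of the microglial level these were 2.73% over all monocytes, inside the range of the reference genes, and 2.21% in NK cells, just under it. Border macrophages reached 19.1% (15.3% to 23.7%), above all reference genes but Fcrls, and 36 of these cells without any P2ry12 or Tmem119 UMI gave 254 CPM. In NK cells, which served as a class that should lack the gene, 5.17% of cells thinned to 2000 UMIs held a Gpr34 UMI. Unthinned, at a median depth of 4594.5 UMIs, 13.8% of these cells held one.

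Adgrg1 (chromosome 8, 95701315 to 95742028) encodes GPR56, an adhesion receptor whose known partners include transglutaminase and tetraspanins. Its level was 385 CPM in wild-type and 302 CPM in knockout microglia-gated cells, and 53.4% and 44.9% of thinned cells held a UMI. In the knockout library it was at 26.7 CPM in border macrophages, 19.3 CPM in NK cells, 11.05 CPM in Ace monocytes and 6.22 CPM in Ly6c2 monocytes, and each neighbouring pair after microglia had overlapping intervals. The share of the microglial level was 3.67% in monocytes and 8.86% in border macrophages, within the range of the reference genes in each class. In NK cells it was 6.38% (2.34% at the lower bound), resting on 6 UMIs. Adora3 (chromosome 3, 105778174 to 105816242), an inhibitory adenosine receptor, was also highest in microglia-gated cells. It was at 108 CPM and 91.7 CPM in wild-type and knockout microglia-gated cells. The knockout library gave 6.22 CPM in Ly6c2 monocytes, 5.94 CPM in border macrophages (2 UMIs, from 1 cell) and 1.95 CPM in Ace monocytes. The 36 knockout border macrophages without any P2ry12 or Tmem119 UMI gave 15.9 CPM. Wild-type border macrophages held 3 Adora3 UMIs in 18 cells. None of the 58 NK cells held an Adora3 UMI, which allows up to 5.17% of cells with a UMI and sets no limit on cells that express the gene at a low level. Of the exon bases of Adora3, 22.1% also belong to Tmigd3 or another gene on the same strand. Tmigd3 itself was at 0.645 CPM and 0.402 CPM, and how reads in the shared bases were assigned is not given in the sources used here.

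Adgre1 (chromosome 17, 57665573 to 57790527), the adhesion receptor long used as a surface mark of mouse macrophages, ran the other way. It was at 225 CPM in wild-type and 164 CPM in knockout microglia-gated cells. Border macrophages of the knockout library held 324 CPM, 198% of the microglial level (162% at the lower bound), and 56.2% of thinned cells there held a UMI against 28.3% of microglia-gated cells. The 18 wild-type border macrophages held 47 Adgre1 UMIs, and 15 of the 18 cells had at least 1. Border macrophages were therefore the class with most Adgre1 in the library where they were numerous. Monocytes lay at 57.2 CPM (Ace) and 53.9 CPM (Ly6c2), with overlapping intervals, at 32.6% of the microglial level over all monocytes. NK cells gave 1 UMI. Over all monocytes Adgre1 was at 85.5 CPM in the wild-type library (24 UMIs) and at 53.4 CPM in the knockout library, under the microglial level in both.

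S1pr1 (chromosome 3, 115504071 to 115508721) is the S1P receptor through which lymphocytes leave lymphoid organs. It was at 29.3 CPM in wild-type and 15.6 CPM in knockout microglia-gated cells, and 5.55% and 2.91% of thinned cells held a UMI. Knockout border macrophages stood at 53.5 CPM, 343% of the microglial level (202% at the lower bound), from 18 UMIs in 14 cells, and at 42.2 CPM without the cell that held 4 of them. Wild-type border macrophages gave 6 UMIs in 5 of 18 cells. Monocytes were low: 6 UMIs in 488 knockout cells, or 2.01 CPM, and none in the 300 Ace monocytes, which allows up to 1.95 CPM. In knockout border macrophages S1pr1 was 26.6-fold higher than in monocytes (10.1-fold at the lower bound). NK cells held 2 UMIs, and their interval overlapped with that of microglia.

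Gpr183 and Ptafr were both higher in Ly6c2 than in Ace monocytes of the knockout library. Gpr183 (chromosome 14, 122189592 to 122202610, inside Ubac2 on the opposite strand) encodes the oxysterol receptor that guides immune cells along gradients of dihydroxycholesterols. It was at 229 CPM in wild-type and 183 CPM in knockout microglia-gated cells. In the knockout library border macrophages held 208 CPM, Ly6c2 monocytes 62.2 CPM, Ace monocytes 11.05 CPM and NK cells 9.63 CPM. The first of these overlapped with microglia (162 to 263 CPM), and the last 2 overlapped with each other. Ly6c2 monocytes had 5.63-fold the level of Ace monocytes (3.24-fold to 10.3-fold). The wild-type library gave 15 UMIs in 18 Ly6c2 monocytes, 8 of them in 1 cell, and 2 UMIs in 14 Ace monocytes.

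Ptafr (chromosome 4, 132291363 to 132309994) is the receptor for PAF. It was at 95.9 CPM in wild-type and 65.2 CPM in knockout microglia-gated cells. Knockout border macrophages held 65.4 CPM, Ly6c2 monocytes 16.6 CPM, NK cells 6.42 CPM (2 UMIs) and Ace monocytes 4.55 CPM. Ly6c2 monocytes thus stood 3.64-fold above Ace monocytes (1.42-fold to 10.5-fold), and border macrophages could not be told from microglia at this depth. In the same contrast Gpr34 was lower in Ly6c2 than in Ace monocytes, at 0.38-fold (0.21-fold to 0.65-fold), with both near the level of the reference genes. Ly6c2 monocytes were deeper, with a median of 8190 UMIs against 4984. Several summed marker lists moved with Gpr183 and Ptafr, though not every gene in them. Border macrophage markers were at 566.6 CPM in Ly6c2 monocytes (6 of 8 detected, Lyve1 and Folr2 at 0). In Ace monocytes they were at 62.4 CPM (7 of 8, Folr2 at 0). Dendritic cell markers were at 207 CPM (4 of 5) against 45.5 CPM (3 of 5), and T cell markers at 24.9 CPM (4 of 4) against 1.30 CPM (2 of 4). The dendritic list includes Siglech, 1 of the 6 microglial reference genes, and Cd209a, which is also in the monocyte list. Siglech gave 23 of the 200 dendritic list UMIs in Ly6c2 and 53 of the 70 in Ace monocytes. NK markers were at 246 CPM (6 of 8, Klrb1c and Eomes at 0) against 11.05 CPM (4 of 8). Neutrophil markers were at 6268 CPM (4 of 5) against 16.2 CPM (3 of 5). Almost all neutrophil RNA of the monocytes, 6015 of 6096 UMIs, lay in 4 cells. Without the 5 monocytes rich in neutrophil or choroid plexus RNA, Gpr183 was at 26.7 CPM and Ptafr at 9.13 CPM over all monocytes. With them the levels were 26.5 and 9.07 CPM. These levels pool both kinds of monocyte, so they do not show whether the Ly6c2 to Ace contrast changed. The part of border macrophage, dendritic, T and NK cell RNA in this contrast was not tested.

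The LPA receptors differed in detection. Lpar6 (chromosome 14, 73475335 to 73480734) lies inside Rb1 on the opposite strand, with 408 exon bases in common. It was at 79.5 CPM in wild-type and 54.8 CPM in knockout microglia-gated cells. In the knockout library border macrophages (53.5 CPM), Ly6c2 monocytes (47.7 CPM) and Ace monocytes (44.2 CPM) followed with overlapping intervals, and NK cells gave 3 UMIs. Lpar6 was thus spread over the myeloid classes at 85.1% (monocytes) and 97.6% (border macrophages) of the microglial level. Wild-type monocytes gave 42.7 CPM from 12 UMIs. Lpar5 (chromosome 6, 125044883 to 125059435) was near the limit of detection, with 137 UMIs (2.26 CPM) in wild-type and 39 UMIs (1.04 CPM) in knockout microglia-gated cells, and 0.49% and 0.21% of thinned cells with a UMI. Each other class gave at most 2 Lpar5 UMIs, so its order across classes was not detectable at this depth.

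Microglia-gated cells of the genotypes were then compared. Every receptor had a lower CPM in the knockout library, but so did most genes: the median log2 ratio of the 8720 genes that reached 10 CPM in either library was -0.30. Ratios are therefore given relative to that median, on a log2 scale, and called by size at 1.5-fold or more. On this scale 1 of the 8 receptors that passed the floor was lower, 0 were higher and 7 lay within 1.5-fold, against 12.5% of all genes lower and 15.4% higher. On the uncentred CPM scale the same count of 1 lower and 0 higher stood against 30.6% and 4.86%. The median over the 8 receptors was -0.11, and the middle 50% of all genes ran from -0.37 to 0.41.

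**Figure D3:**
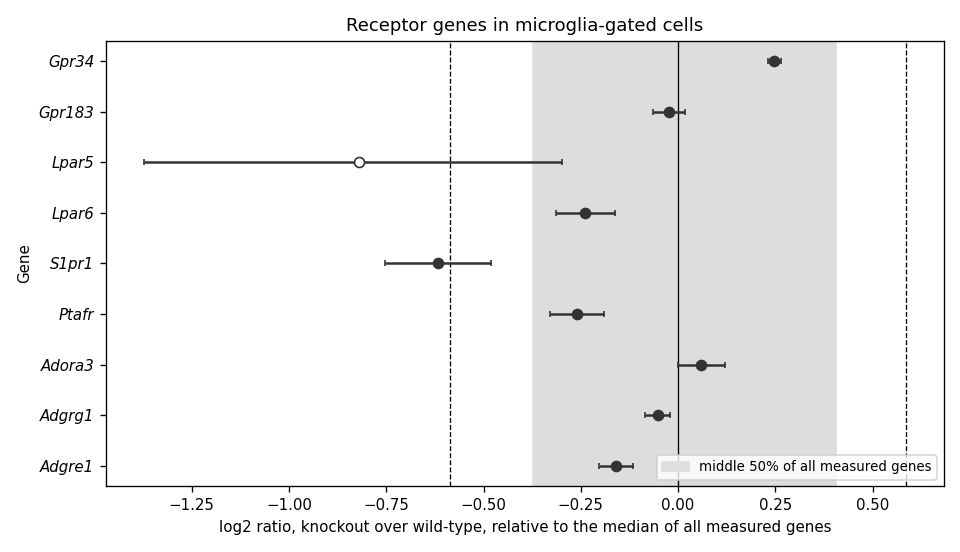
Log2 ratio of knockout over wild-type in microglia-gated cells for each receptor, relative to the median of 8720 genes, with exact 95% counting intervals; 1 library per genotype. The grey band is the middle 50% of all measured genes and dashed lines mark 1.5-fold; S1pr1 lies past the lower line at -0.62, Lpar5 (open circle) was under the floor of 10 CPM.

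S1pr1 was the lower receptor, at -0.62 (-0.75 to -0.48), so the counting interval itself reached inside 1.5-fold. In the order of all genes it stood at percentile 11.1. Its call was lost when the 6% of cells with the most UMIs were left out (-0.58), when all kept cells were taken with no gate (-0.58) and when genes of any level set the centre (-0.49). Gpr34 stood at 0.25 (0.23 to 0.26) relative to the median but at -0.05 on the CPM scale, so its direction depended on the centring. Adora3 was at 0.06, Gpr183 at -0.02 and Adgrg1 at -0.05, and the sign of each turned under another centring, floor or gate. Adgre1 (-0.16), Lpar6 (-0.24) and Ptafr (-0.26) kept a negative sign under all 13 alternatives. Lpar5, under the floor, stood at -0.82 (-1.37 to -0.30) on 137 and 39 UMIs.

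Some marker lists of other cells moved with the genotypes in microglia-gated cells, and their part in these ratios was not tested. Summed neutrophil markers (5 of 5 detected in each library) were at 17.6 CPM in wild-type and 221 CPM in knockout cells, erythroid markers (4 of 4) at 79.3 and 594 CPM, and monocyte markers (9 of 9) at 16.0 and 101 CPM. Choroid plexus and ependyma markers were at 1.07 CPM (3 of 4 detected, Kl at 0) and 77.6 CPM (4 of 4), and NK markers at 0.76 CPM (5 of 8, with Klre1, Klra8 and Il2rb at 0) and 16.4 CPM (8 of 8). A few cells held many of the choroid plexus and neutrophil UMIs: 2383 of the 2900 knockout choroid plexus UMIs lay in 1 cell, and 858 of 1067 wild-type and 3394 of 8272 knockout neutrophil UMIs in 4 cells each. Border macrophage markers, the list of the class with most S1pr1, were at 249 and 206 CPM. Microglial markers outside the gates were at 18234 and 20571 CPM.

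**Figure D4:**
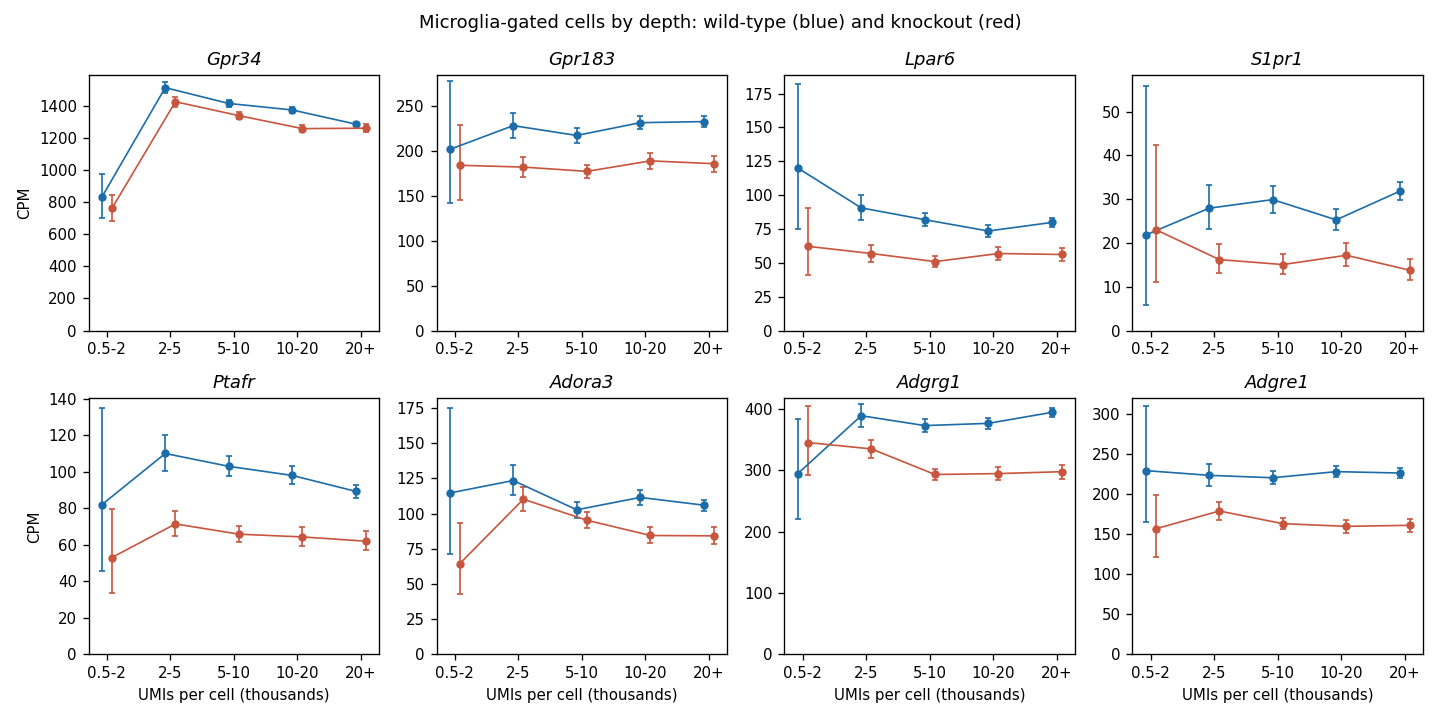
CPM of 8 receptors in microglia-gated cells of the wild-type (blue) and knockout (red) libraries by band of UMIs per cell (axis in units of 1000 UMIs), with exact 95% counting intervals. Above 2000 UMIs per cell all knockout points lie under the wild-type points. On this uncentred scale the median log2 ratio of all genes in these bands was also negative, from -0.28 to -0.32. In these bands S1pr1 ran from 25.3 to 31.8 CPM in wild-type and from 13.8 to 17.2 CPM in knockout cells.

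Because the wild-type cells were deeper, the receptors were also read within bands of UMIs per cell. S1pr1 in wild-type cells was at 27.9, 29.9, 25.3 and 31.8 CPM in the bands from 2000, 5000, 10000 and 20000 UMIs. In knockout cells the same bands gave 16.2, 15.1, 17.2 and 13.8 CPM. The groups did not overlap in these 4 bands, and the relative log2 ratios were -0.51, -0.71, -0.26 and -0.89. In the shallowest band, with 4 and 10 UMIs, it was 0.32. Ptafr gave 110, 103, 97.9 and 89.2 CPM in wild-type and 71.4, 65.8, 64.3 and 61.9 CPM in knockout cells over the 4 deeper bands. Its relative log2 ratios there were -0.35, -0.37, -0.32 and -0.21. Gpr34 was lowest in the shallowest cells of both libraries, at 829 CPM and 760 CPM, and highest in the next band, at 1512 and 1424 CPM. The relative log2 ratios of Gpr34 in the 4 deeper bands were 0.19, 0.20, 0.17 and 0.29.

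The heat shock gene Hspa1a, which marks cells stressed in preparation, was also used to divide the cells. Thinned cells without an Hspa1a UMI gave 30.3 CPM in wild-type and 16.0 CPM in knockout cells, and cells with at least 1 gave 21.6 and 13.04 CPM. In the latter the intervals of the libraries overlapped. Klf2, a transcription factor known to raise S1pr1 in lymphocytes, was at 1384 CPM in wild-type and 3547 CPM in knockout microglia-gated cells, while S1pr1 was lower there. Among wild-type cells with 0 to 1, 2 to 4, 5 to 9 and at least 10 Klf2 UMIs, S1pr1 was at 30.6, 28.9, 25.2 and 32.4 CPM. The knockout values were 11.01, 14.0, 15.8 and 16.9 CPM, with overlapping intervals. Between the libraries the intervals overlapped at 5 to 9 and at 10 or more Klf2 UMIs. The part of Klf2 and of preparation stress in the S1pr1 ratio was not tested.

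The shares of thinned cells with a UMI were lower in the knockout library for each receptor. For Gpr183 they were 36.1% and 27.8%, for Adgre1 34.5% and 28.3%, and for Ptafr 18.1% and 12.6%. For Lpar6 the shares were 15.4% and 10.1%. Adora3 differed least in proportion except for Gpr34, with 19.0% and 17.9% and overlapping intervals. Counted per cell, wild-type microglia-gated cells held a UMI of 2.74 of the 9 receptors on average and knockout cells 2.33. At least 4 receptors were found in 24.3% of wild-type and 14.1% of knockout cells, and none in 0.84% and 2.50%. These counts follow the uncentred scale, on which most genes were lower in the knockout library.

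The spread of counts over microglia-gated cells was also read. The variance of thinned counts over their mean was 1.29 for Gpr34 in wild-type and 1.45 in knockout cells, against medians of 1.24 and 1.37 for genes of like mean. Lpar6 was at 1.14 against 1.03 in wild-type and 1.06 against 1.02 in knockout cells. The other receptors above the floor lay between 1.00 and 1.13. At such low counts per cell this ratio shows little of how cells differ, so nothing is read from it.

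Other members of the same receptor families mostly stayed under 10 CPM in microglia-gated cells. Of 34 further lipid, adenosine, proton and adhesion receptors, 5 passed the floor, with a median of -0.34: 1 was higher, 1 lower and 3 within 1.5-fold, too few to set against the 15.4% and 12.5% of all genes. The leukocyte adhesion receptor Adgre5 was higher (12.8 and 22.9 CPM in wild-type and knockout cells, 1.13 relative log2), and the S1P receptor S1pr4 was lower (15.1 and 7.55 CPM, -0.71). Those highest in wild-type cells were Cysltr1, a leukotriene receptor, at 113 and 95.2 CPM, Adgrl2 at 39.1 and 25.1 CPM and P2ry10b at 26.7 and 15.8 CPM. On the CPM scale 1 was higher and 3 were lower, again too few to set against the 4.86% and 30.6% of all genes. Adgre5 was itself at 759 CPM in Ace and 368 CPM in Ly6c2 monocytes of the knockout library. Summed monocyte markers, a list not particular to either kind, were at 16.0 CPM in wild-type and 101 CPM in knockout microglia-gated cells. Their part in the Adgre5 ratio was not tested.

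The classes differed in which subtype of a family they held, and the following examples were chosen for their values. In the S1P family S1pr5 was at 160.0 CPM in Ace monocytes and 89.9 CPM in NK cells of the knockout library but at 2.52 CPM in microglia-gated cells, and S1pr4 was at 106 CPM in NK cells. Among adenosine receptors, Adora2a was at 73.8 CPM in NK cells and Adora2b at 43.5 CPM in Ly6c2 monocytes, where Adora3 was at 6.22 CPM. For lysophosphatidylserine, P2ry10 and Gpr174 were at 41.7 and 19.3 CPM in NK cells, from 13 and 6 UMIs, and at 0.35 and 0.08 CPM in microglia-gated cells. Of the LPA receptors, Lpar3 had no UMI in any class, and Lpar1, Lpar2 and Lpar4 stayed under 5 CPM in all classes of at least 20 cells. Lpar6 was thus the LPA receptor that passed 10 CPM in the microglial, monocyte and border macrophage classes of at least 20 cells. In NK cells it was at 9.63 CPM, from 3 UMIs.

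**Figure D5:**
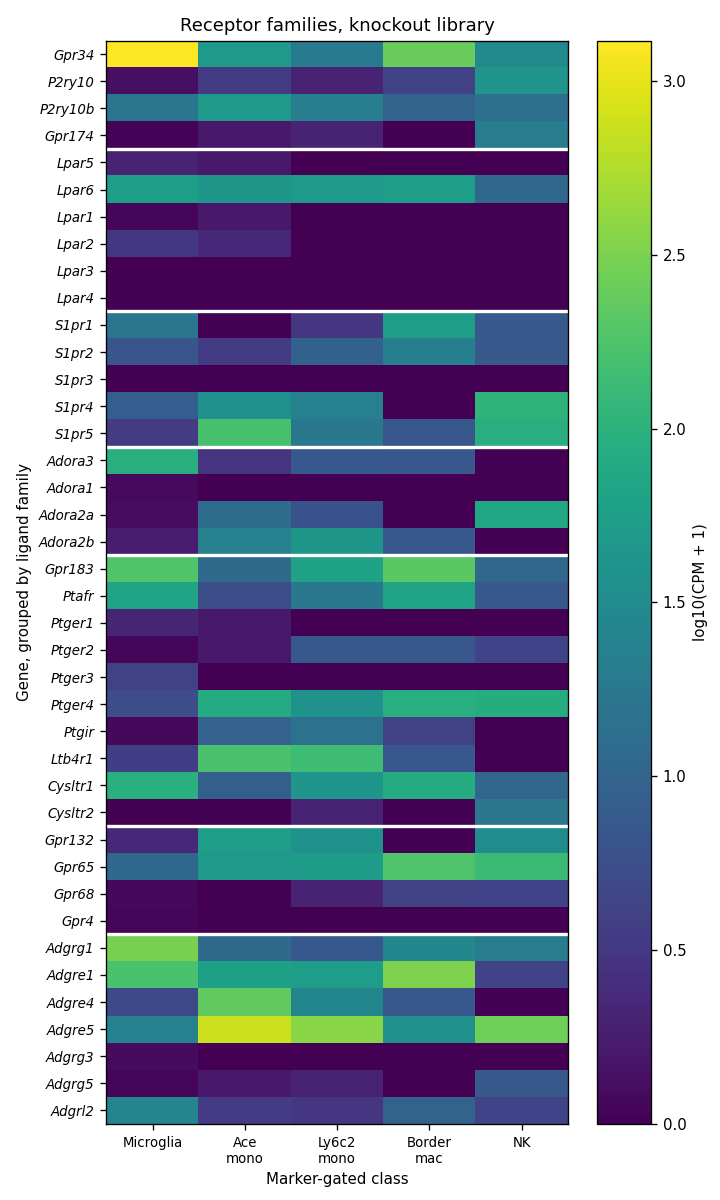
Level of each receptor as log10(CPM + 1) in 5 marker-gated classes of the knockout library, grouped by ligand family (white lines). Gpr34, Adora3 and Adgrg1 are brightest in microglia, S1pr5 and Adgre4 in Ace monocytes (160.0 and 228 CPM), and Gpr65 in border macrophages (181 CPM).

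Genes that make, break or transport the ligands were measured in 23 of 38 cases, with a median of 0.11: 2 were higher, 0 lower and 21 within 1.5-fold, beside 15.4% higher and 12.5% lower of all genes. On the CPM scale 1 was higher and 3 were lower, beside 4.86% and 30.6%. The higher genes were Pafah1b3, a subunit of a PAF acetylhydrolase (24.0 and 36.6 CPM, 0.90), and Cd81, a tetraspanin partner of Adgrg1 (2061 and 2763 CPM, 0.72). Cd9, another tetraspanin, was at 1080 and 1108 CPM, and Lpcat2, which makes PAF, at 970 and 1079 CPM. Among downstream transducers 21 of 23 were measured, with a median of 0.17: 4 were higher, 3 lower and 14 within 1.5-fold, shares close to the 15.4% and 12.5% of all genes. The higher ones were the G protein subunits Gnai2 (793 and 1077 CPM, 0.74), Gnas (0.60), Gnb2 (1.08) and Gng5 (0.89). The lower ones were the subunit Gnaq (173 and 92.7 CPM, -0.61), the exchange factor Arhgef12 (-0.67) and the cyclase Adcy7 (-0.64). On the CPM scale 2 transducers were higher and 4 lower, beside 4.86% and 30.6% of all genes.

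Genes with the most similar distribution were found by Pearson r of log2(CPM + 1) over 6 profiles of at least 20 cells, 5 of which came from the knockout library. This is a description: 74 to 337 of the 8165 genes compared reached r of 0.95 with a given receptor. Nearest to Gpr34 were Tmx4, D830025C05Rik and Cd81, to Gpr183 Nacc2, H2aw and Cysltr1, and to Adora3 Vsir, Srek1ip1 and Cds1. Nearest to Adgrg1 were Il1a, Bicd2 and Gm2629, to Adgre1 Stradb, Galc and Gaa, and to S1pr1 Slc9a9, Leng1 and Prmt7. Ptafr was nearest to Aatf, Rhobtb1 and Tbxas1, and Lpar6 to Ids, Tbc1d8 and Lrpprc. All these r lay between 0.99 and 1.00. Slc9a9, for example, was at 172 CPM in border macrophages, 67.9 CPM in microglia-gated cells and 2.60 CPM in Ace monocytes of the knockout library.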

How the data were processed

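CD45+ CD11b+ cells were profiled with 10x Genomics 3′ v2 chemistry, per the labels' protocols. The deposited values are UMI counts, as whole numbers for every gene in every barcode, from Cell Ranger 7.0.0 per the file headers (6.0 per the labels' protocols) on GRCm39. Groups came from the genotype labels. Of the genes, 98.9% matched GENCODE by identifier.

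Barcodes of 500 genes or more with no more than 10% mitochondrial UMIs were kept. Microglia needed 1 UMI of P2ry12 and 1 of Tmem119, monocytes 2 of Ace or of Ly6c2, border macrophages 1 of Mrc1 and 1 of Pf4, and NK cells 1 of Ncr1 and 1 of Nkg7. The last 3 classes were allowed at most 1 UMI of P2ry12 and Tmem119 together. Cells that met the gene conditions of different classes were left out, except that NK cells could hold Ly6c2. No class took 8.75% of wild-type and 29.9% of knockout kept cells. Of these, 240 and 1040 met the gene conditions of different classes. No doublet caller was run, so doublets may remain.

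UMIs were summed per class and library and scaled to CPM, with log2 ratios centred on the median of genes that reached 10 CPM in either library. Classes under 20 cells gave counts. Intervals were exact Poisson, binomial or conditional 95% intervals. A count of 0 allows up to 3 counts. Floors and intervals cover counting error only. Python 3.11.15, numpy 2.4.6, scipy 1.17.1 and pandas 2.3.3 were used. The calculations were tested on simulated data. Named genes are the 9 receptors, list genes past 1.5-fold (up to 6 a list), the 3 list genes highest in wild-type cells, and the 3 most like genes per receptor at 20 CPM or more in a profile. The receptors, lists and gates were chosen with earlier results of these data known.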

Additional observations from a re-analysis of the deposited data

Results flagged for a closer look

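Gpr34 had ratios of opposite sign in the classes of cells on the centred scale only: the knockout to wild-type log2 ratio was -0.78 in monocyte-gated cells (-1.48 to -0.01) and 0.25 in microglia-gated cells. On the CPM scale both were negative, at -1.001 and -0.05. The difference between the classes was not tested. The monocyte value rests on 20 UMIs in 36 wild-type cells and 106 UMIs in 488 knockout cells. In monocytes Gpr34 stood at 5.28% of its microglial level (wild-type) and 2.73% (knockout), beside medians of 3.38% and 2.89% for the 6 microglial reference genes.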

How the results depend on the processing

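The count of receptors lower in knockout microglia-gated cells was 0 in place of 1 without the 6% of cells with the most UMIs and with all kept cells and no gate. It stayed at 1, and the count of higher receptors at 0, under the other alternatives, where with no floor on level the lower receptor was Lpar5 (-0.69) and not S1pr1. S1pr1 ran from -0.91 on the CPM scale to -0.49 with no floor on level and was past 1.5-fold in 10 of 13 alternatives. Over all genes, the calls changed from 1343 higher and 1092 lower to 424 and 2665 on the CPM scale and to 4653 and 4678 with no floor. The number of receptors with their highest level in microglia-gated cells ran from 4 to 6 of 9 in the knockout library and stayed at 8 in the wild-type library. This count sets no floor on level, so the knockout count includes Lpar5 at 1.04 CPM. It changed through Lpar6 (54.8 against 53.5 CPM in border macrophages) and Ptafr (65.2 against 65.4 CPM), which were near ties. With the floor of 10 CPM the knockout count was 4 of 8, near the 39.8% of all genes, and nothing is read from it. Demanding no microglial UMI in other classes left too few wild-type cells for a comparison. Leaving out barcodes common to the libraries, cells with an Hspa1a UMI, or monocytes rich in choroid plexus or neutrophil RNA was chosen after seeing the data. No replicate could be left out, and no paired analysis was possible because each genotype was 1 library. Depth limited Lpar5 everywhere and all wild-type classes other than microglia.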
